A study of Danio rerio with 12 samples.

Results

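A set of 10 genes used to recognise T lymphocytes, natural killer cells and innate lymphoid cells were followed through macrophages and microglia sorted from the eyes of zebrafish larvae. They were chosen by name, with earlier results of these data known, and all 10 were found among the 25281 genes measured. Described here are cd28, lck, il7r, il2rga, gata3, runx3, tbx21 and tcf7. The sorted cells carried mCherry, came from dissociated eyes in sorts of at most 1000 cells, and their amplified RNA was sequenced. In the ablated groups (MTZ+) the cell layer that supports the photoreceptors, the retinal pigment epithelium or RPE, had been destroyed with 10 mM metronidazole for 24 hours from 5 to 6 days post-fertilisation (dpf), and the unablated groups (MTZ-) did not receive the drug. Eyes were collected at 2 or 4 days post-injury (dpi), giving 4 groups of 3 libraries. The titles of both replicate 2 libraries at 2 dpi give an age of 7 dpf, and the other titles give no age. All larvae had been kept in phenylthiourea from 0.25 to 5 dpf to stop pigmentation. The promoters behind the sort marker and the ablation, and the strain, are not named by the labels, and drug and ablation cannot be told apart. Time goes with larval age and with the date in the library titles. Nothing in the labels says whether the 3 libraries of a group came from separate clutches, and p-values therefore reflect a spread among libraries that may be partly technical.

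T lymphocytes recognise antigen through a T cell receptor, whose signal passes through the kinases LCK and ZAP70, with CD28 as the costimulatory receptor. Innate lymphoid cells lack that receptor and share with T cells the receptors for interleukin 7 and related cytokines and the transcription factors GATA3, RUNX3, T-bet (tbx21) and TCF-1 (tcf7); these roles are known mainly from mice and humans. In mice, Gata3 is also active in the epidermis, and Runx3 is needed by Langerhans cells, the macrophage-like cells of the epidermis, and by some sensory neurons. The question put to the data was whether the genes of T cell signalling followed gata3 and runx3.

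Each library held 19791633 to 38935355 counts on genes. Macrophage and microglia markers were present in every library, and the summed level of the 13 measured ranged from 20135 to 61199 CPM (counts scaled to library size with TMM factors over the 12 libraries). Apoeb led this sum at 6653 to 50098 CPM, while mpeg1.1 ranged from 1615 to 2980 CPM. RNA of other eye cells was also present and uneven. The 19 photoreceptor markers summed to 116974 CPM in unablated replicate 1 at 2 dpi and to 21.8 CPM in ablated replicate 3 at 4 dpi. The 9 RPE markers reached 2460 CPM in unablated replicate 2 at 2 dpi and at most 60.6 CPM in the other libraries. The 15 epithelial markers, with epcam, cdh1 and cldnh among the most abundant, summed to 496 to 9934 CPM. The 10 neutrophil markers summed to 213 to 247 CPM without ablation and 659 to 1019 CPM with it at 2 dpi, led by nccrp1 and srgn, while lyz was at most 0.376 CPM in any library and mpx at most 33.7 CPM. Red cell markers were at most 27.7 CPM in sum.

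The members fell into 3 ranges of abundance. On the TPM scale, on which transcript levels are adjusted for gene length and depth, il2rga averaged 296 TPM over the 12 libraries. It was followed by runx3 at 9.49 TPM, gata3 at 6.98 TPM, il7r at 4.105 TPM and cd28 at 1.26 TPM. The spread of these 4 genes across libraries was wide enough that neighbours in the order overlapped: runx3 ranged from 2.11 to 21.9 TPM and gata3 from 0.963 to 26.4 TPM. The kinase lck averaged 0.776 TPM, and the transcription factor genes tbx21 and tcf7 were rarer still, at 0.0605 and 0.0471 TPM.

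**Figure D1:**
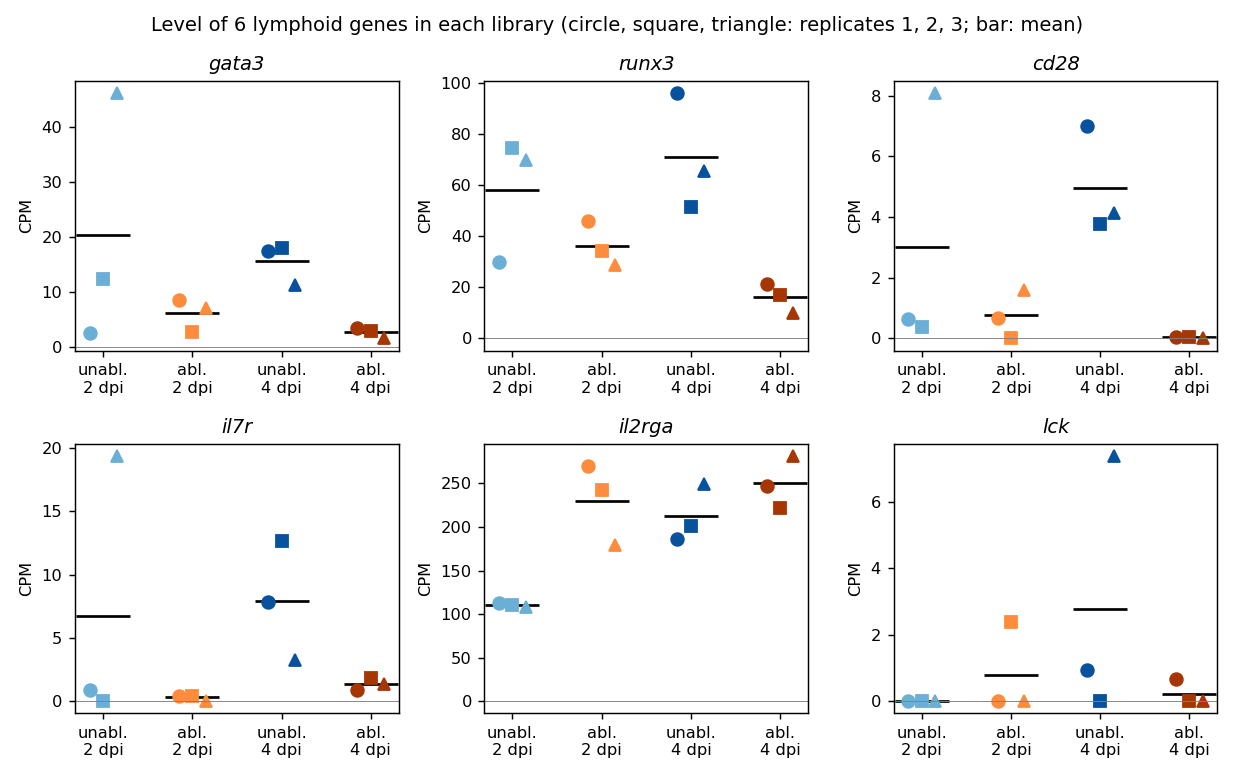
Level of 6 members in each library, in CPM on a linear scale with its own range for each gene, by group (unabl., unablated; abl., ablated). Points are libraries and bars group means; at 4 dpi gata3, runx3, cd28 and il7r lie lower in all 3 ablated libraries than in all 3 unablated ones, and il2rga does not.

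Gata3, a zinc finger transcription factor of T helper and innate lymphoid cells, lies on chromosome 4 from 25054510 to 25064510 (GRCz11, minus strand). At 2 dpi it measured 2.49, 12.3 and 46.1 CPM in unablated replicates 1, 2 and 3, and 8.54, 2.60 and 7.07 CPM in the ablated replicates. The unablated libraries spanned the ablated ones. At 4 dpi it measured 17.4, 17.98 and 11.2 CPM without ablation and 3.48, 2.89 and 1.51 CPM with it, and the groups did not overlap. With ablation it fell 5.92-fold at 4 dpi (log2 fold change -2.57, SE 0.45, adjusted p = 0.038 by the quasi-likelihood test of edgeR, adjusted after Benjamini and Hochberg over all genes tested, as for the fold changes below).

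Runx3, the RUNX-family factor of cytotoxic lymphocytes, lies on chromosome 13 from 45092766 to 45225980 on the minus strand. Its levels at 2 dpi were 29.97, 74.8 and 69.8 CPM in unablated libraries and 45.9, 34.3 and 28.9 CPM in ablated ones. Unablated replicate 1 was again the low library of its group and lay among the ablated values. At 4 dpi the levels were 96.1, 51.7 and 65.5 CPM without ablation and 21.4, 17.2 and 10.15 CPM with it. Runx3 fell 4.38-fold after ablation (log2 -2.13, SE 0.36, adjusted p = 0.036 by edgeR). Its family member runx1 and its binding partner cbfb did not pass the test at 4 dpi, with log2 fold changes of 0.28 (SE 0.58) and -0.06 (SE 0.23).

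Cd28, on chromosome 9 from 13985567 to 13989879 on the plus strand, was the costimulatory member. It measured 0.635, 0.364 and 8.08 CPM in unablated libraries at 2 dpi and 0.682, 0 and 1.59 CPM in ablated ones. At 4 dpi the unablated libraries held 6.9996, 3.77 and 4.13 CPM (242, 78 and 140 counts), and the ablated libraries held 2, 2 and 0 counts. Over the summed counts and depths of the groups, cd28 was 135-fold lower after ablation (95% exact interval 52.4 to 498, counting error only). The fitted log2 fold change was -6.88 (SE 1.198, adjusted p = 0.038 by edgeR), a size that depends on the prior count used for near-empty libraries. Cd28 passed the expression filter at 4 dpi through its unablated libraries.

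The interleukin 7 receptor chain il7r, on chromosome 21 from 22429509 to 22435957 on the minus strand, was the most uneven of the more abundant members. At 2 dpi its counts were 18, 0 and 657 in unablated replicates 1, 2 and 3, against 15, 13 and 0 in the ablated libraries. A single library therefore held 657 of the 675 unablated counts. At 4 dpi it measured 7.87, 12.6 and 3.24 CPM without ablation and 0.912, 1.82 and 1.36 CPM with it, with no overlap. The fold change at 4 dpi, log2 -2.53 (SE 0.67), did not pass the edgeR test (adjusted p = 0.0901), while DESeq2 gave an adjusted p of 0.00571 and limma on log2(TPM + 1) gave 0.0435.

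Il2rga, on chromosome 10 from 33544329 to 33557299 on the minus strand, encodes the common gamma chain shared by receptors for interleukins 2, 4, 7, 15 and 21, and in mammals is carried by macrophages as well as lymphocytes. It did not share the fall of gata3, runx3 and cd28. At 2 dpi it measured 113, 110 and 108 CPM in unablated libraries and 269, 242 and 179 CPM in ablated ones. All ablated libraries lay above all unablated libraries at that time, and the smallest gap was 179 against 113 CPM. That pattern was found in 19.8% of genes tested at 2 dpi, and edgeR did not call il2rga there (adjusted p = 0.110). At 4 dpi the levels were 187, 201 and 249 CPM without ablation and 247, 222 and 282 CPM with it, and the groups overlapped (log2 fold change 0.23, SE 0.16, adjusted p = 0.489).

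The kinase lck, the T cell member of the SRC family, was found in 4 of 12 libraries. Its counts were 72 in ablated replicate 2 at 2 dpi, 32 and 250 in unablated replicates 1 and 3 at 4 dpi, and 23 in ablated replicate 1 at 4 dpi. All other libraries held 0, which at these depths allows up to 0.0771 to 0.152 CPM in a library (3 counts). At 4 dpi the fold change of lck was -3.64 on the log2 scale with an SE of 2.55, and it did not pass the test (adjusted p = 0.509).

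Tcf7, which encodes a factor of T cell and innate lymphoid development, had 4 counts in unablated replicate 2 at 2 dpi, 13 in unablated replicate 1 at 4 dpi and 3 in ablated replicate 3 at 4 dpi. Tbx21 had 10 and 8 counts in unablated replicates 1 and 2 at 2 dpi, 1 in ablated replicate 1 at 2 dpi and 4 in unablated replicate 3 at 4 dpi. Neither gene passed the expression filter in any comparison, so no test of either was made.

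**Figure D2:**
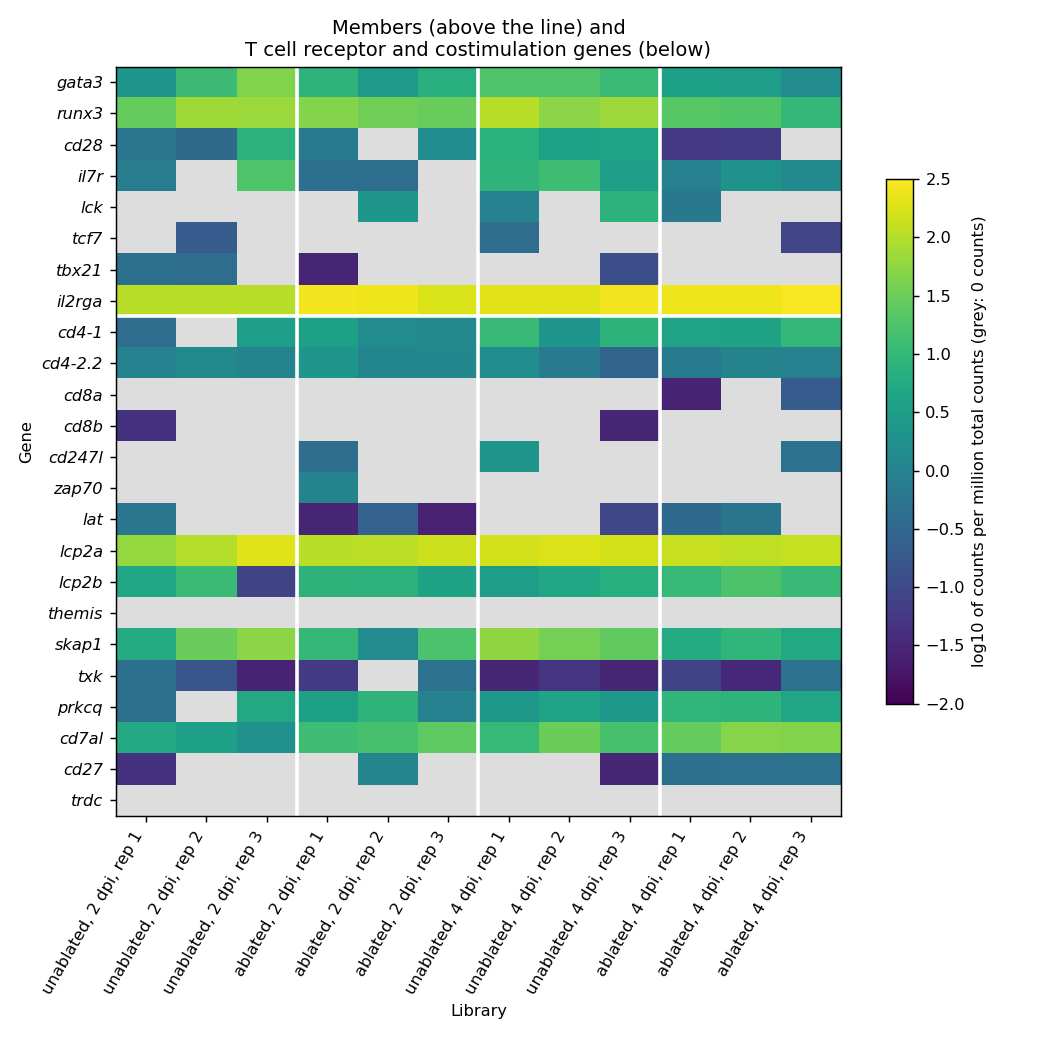
In rows, 8 members and, below the white line, 16 T cell receptor and costimulation genes in the 12 libraries (columns), coloured by the log10 of CPM on total counts; grey marks 0 counts. Il2rga, runx3 and gata3 were detected in all 12 libraries, whereas lck was detected in 4 and zap70 in 1.

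The other genes of T cell recognition ranged from absent to abundant. Of 16 measured T cell receptor and costimulation genes, 6 stayed under 1 CPM in every library and 6 had 0 counts in most libraries. The coreceptor genes cd4-1 and cd4-2.2 were detected in 11 and 12 libraries, with 1639 and 410 counts in all and up to 10.5 and 2.31 CPM. The kinase gene prkcq was detected in 11 libraries (1609 counts). Themis, needed for T cell selection in mice, and trdc, a T cell receptor delta constant gene, had 0 counts in all 12 libraries. Zap70, the kinase that docks on the activated receptor, had 37 counts in ablated replicate 1 at 2 dpi and 0 elsewhere. The coreceptor genes cd8a and cd8b totalled 8 and 2 counts over all libraries. The receptor zeta-like gene cd247l had 71 counts in unablated replicate 1 at 4 dpi, 14 in ablated replicate 1 at 2 dpi and 17 in ablated replicate 3 at 4 dpi. Unablated replicate 1 at 4 dpi was thus the library in which lck (32 counts), tcf7 (13), cd247l (71) and the recombinase gene rag2 (13) were all present. The same library held 0 counts of zap70, lat, cd8a, cd8b, cd27, themis, trdc and rag1. It also held 364 counts of cd4-1, 46 of gzmk, 35 of gzm3.3 and 30 of ifng1, for each the most of any library. The library with the most lck, unablated replicate 3 at 4 dpi, held 0 counts of cd247l, zap70 and tcf7. It did hold 268 counts of cd4-1, 25 of gzmk, 17 of gzm3.3 and 8 of ifng1. The T cell adaptors differed. Lcp2a (SLP-76, which in mice also acts in macrophages and other myeloid cells) was abundant, with 1335 to 6815 counts a library. Skap1 held 46 to 1853 counts a library and lcp2b 3 to 555, while lat totalled 55 over all libraries.

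At 2 dpi none of the 5 members tested changed. The share of all genes called at that time was 0% of 16048 by edgeR, although 2691 genes had an unadjusted p under 0.05, and DESeq2 called 1486 genes, limma voom 976 and limma on log2(TPM + 1) 852. The nearest to the threshold was il2rga, with a log2 fold change of 0.99 (SE 0.22, adjusted p = 0.110). DESeq2 (adjusted p = 0.0161), limma voom (0.0391) and limma on log2(TPM + 1) (0.0345) called it higher, as did edgeR fitted to all 12 libraries (0.0110). It was the 1 member of 5 with all ablated libraries higher, a pattern found in 19.8% of genes tested at 2 dpi. The other 4 members had negative fold changes with wide errors: -0.75 (SE 0.41) for runx3, -1.80 (SE 1.06) for gata3, -2.06 (SE 1.94) for cd28 and -4.57 (SE 2.59) for il7r, all on the log2 scale, with adjusted p from 0.420 to 0.590.

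Libraries with the same replicate number at 2 dpi share a date in their titles, and for both gata3 and runx3 the direction of the difference changed between dates. On the log2(CPM + 1) scale, gata3 was 1.45 higher after ablation on the date of replicate 1, and lower by the differences -1.88 and -2.55 on those of replicates 2 and 3. Runx3 had the same order, with differences of 0.60, -1.10 and -1.24. Cd28 differed by 0.04, -0.45 and -1.81, and il7r by -0.38, 0.51 and -4.35. Il2rga was higher after ablation on all 3 dates, by 1.25, 1.13 and 0.73. For these comparisons 1 library stands on each side of a date, so they have no test of their own.

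At 4 dpi, 3 of the 6 members tested fell: gata3, runx3 and cd28. Of all 16313 genes tested, 1.88% were called lower and 1.83% higher. All ablated libraries were lower for 4 members (gata3, runx3, cd28 and il7r), a pattern found in 14.8% of genes tested. Cd28 had to be present in the unablated libraries to be tested, and the members were chosen with earlier results of these data known. For both reasons these counts describe the members and are not a test of them as a group. Cd28 went the way of gata3 and runx3, and il7r did so without passing the edgeR test. Il2rga, which in mammals is not particular to lymphocytes, did not. Lck could not be placed, and tcf7 was too rare to compare. The T cell genes outside the members are given below. The 3 calls were sensitive to single libraries. Without any 1 of the 3 unablated libraries or of ablated replicates 1 and 3, none of the 3 genes was called, with adjusted p between 0.0816 and 0.134, and without ablated replicate 2 all 3 were. The count over all genes moved with it, from 605 called in either direction to between 0 and 38 under those 5 omissions and 1420 without ablated replicate 2. The fold changes stayed within -2.82 to -2.29 for gata3, -2.38 to -1.85 for runx3 and -7.23 to -6.34 for cd28 (log2). With all 12 libraries in 1 fit, runx3 was called (adjusted p = 0.0395), gata3 (0.203) and cd28 (0.145) were not.

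**Figure D3:**
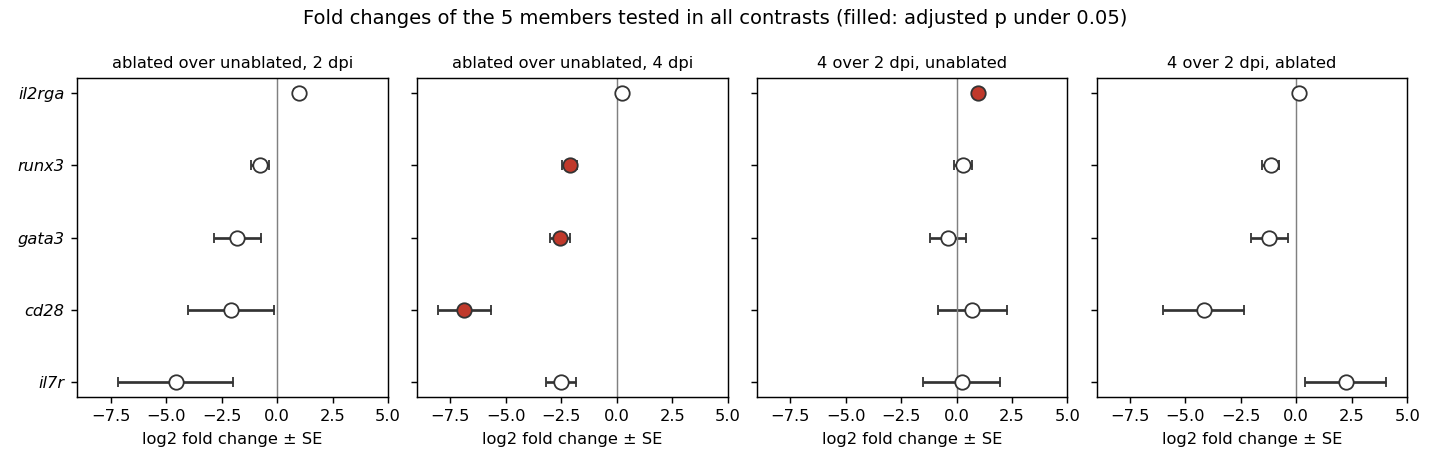
Log2 fold change with its standard error (horizontal bars) for the 5 members tested in all 4 contrasts, from edgeR; filled points have an adjusted p under 0.05. Gata3, runx3 and cd28 are filled and below 0 at 4 dpi, and il2rga is filled in the contrast of times without ablation.

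Epithelial markers moved in the same direction at 4 dpi. Their sum was 2944 to 5610 CPM in unablated libraries and 927 to 1354 CPM in ablated ones. Of the 15 tested, 4 fell (epcam, cdh1, esrp1 and krt18a.1), 14 had a negative fold change, and 8 had all ablated libraries lower. A negative fold change was found for 8588 of all 16313 genes tested. Of these 16313 genes, 1.88% were called lower, and 14.8% had all ablated libraries lower. Epcam, an epithelial adhesion molecule that mouse Langerhans cells also carry, measured 975, 1196 and 1105 CPM without ablation and 93.3, 258 and 140 CPM with it. At 2 dpi, epcam was 169, 1125 and 3542 CPM in unablated replicates 1, 2 and 3, the order that gata3 also had, and 218, 34.5 and 908 CPM in the ablated libraries. Set against epcam, gata3 came to 10.1 to 17.9 counts for every 1000 epcam counts in unablated libraries at 4 dpi and 10.8 to 37.3 in ablated ones, and these ranges overlapped. Runx3 came to 43.2 to 98.6 and 66.6 to 230.0, which overlapped too. Cd28 came to 3.15 to 7.18 and 0 to 0.611, which did not overlap. The part of epithelial RNA in the fall of gata3, runx3 and cd28 was not tested. In pools of sorted cells, fewer cells of a type and less RNA per cell cannot be told apart.

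Other marker lists also differed at 4 dpi. The summed neutrophil list was 251 to 393 CPM without ablation and 601 to 765 CPM with it, with 3 of 8 tested genes called higher (nccrp1, il6r and csf3r). The sum was led by nccrp1 (111 to 117 and 299 to 342 CPM) and srgn (73.1 to 120 and 122 to 202 CPM). Npsn (log2 fold change 0.11), mmp9 (-0.63), mpx (2.79), srgn (0.788) and timp2b (2.015) did not pass, with adjusted p of at least 0.0899 by edgeR. Lyz was at most 0.376 CPM, and whether neutrophil RNA rose was not tested. The macrophage and microglia list summed to 40777 to 61199 CPM and 28930 to 48770 CPM, with 1 of 13 genes called higher (mfap4) and none lower. Apoeb, which led that sum, measured 30138 to 50098 and 18148 to 35055 CPM. Mpeg1.1 measured 2350 to 2980 and 1688 to 2493 CPM. RPE markers were 19.4 to 42.1 CPM and 2.60 to 3.19 CPM, with 2 of 5 tested genes called lower (rpe65a and rlbp1b). Photoreceptor markers summed to 2259, 245 and 5189 CPM without ablation and 92.7, 27870 and 21.8 CPM with it. Of 16 photoreceptor genes tested, 0 were called. The highest sum was in ablated replicate 2, the library whose omission kept the calls of gata3, runx3 and cd28. Beside these calls, 1.83% of all 16313 genes tested were called higher and 1.88% lower. The part of these marker differences in the members' values was not tested.

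Library by library, with the 4 group means removed, gata3 and runx3 had a Pearson r of 0.66 over the 12 libraries on the log2(CPM + 1) scale (Spearman rho 0.48, exact within-group permutation p = 0.104 and 0.186). Gata3 and cd28 had r = 0.78 (rho 0.74, exact permutation p = 0.170 and 0.0602). Gata3 and il7r had r = 0.65 (rho 0.48, exact permutation p = 0.445 and 0.211), and without unablated replicate 3 at 2 dpi r was -0.18. Runx3 had r = 0.29 with cd28 (rho 0.30, exact permutation p = 0.681 and 0.464) and 0.14 with il7r (rho 0.07, p = 0.893 and 0.882). Il2rga had r = -0.26 with gata3 (rho -0.33, exact permutation p = 0.267 and 0.353) and -0.08 with runx3 (rho -0.22, p = 0.816 and 0.505). None of 17 pairs passed after adjustment, with adjusted exact permutation p of at least 0.577 for r and 0.512 for rho. Without the 2 libraries farthest from the median of gata3, r fell to 0.44 with runx3, 0.64 with cd28 and 0.20 with il7r. Unablated replicate 3 at 2 dpi had the most gata3, cd28, il7r and epcam of all 12 libraries. Without that library, the r of gata3 was 0.33 with cd28 and 0.70 with runx3.

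**Figure D4:**
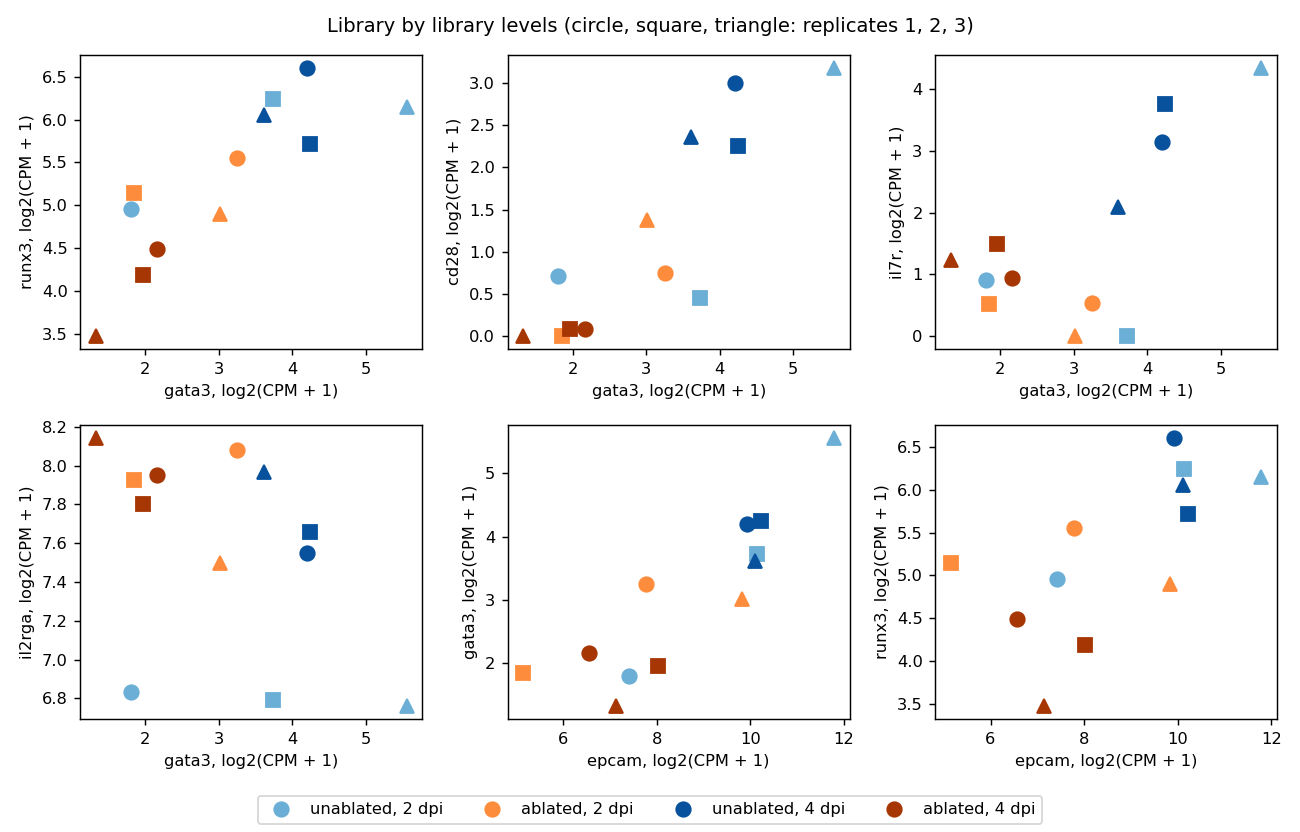
Each point is a library, on log2(CPM + 1) axes, coloured by group, for gata3 against 4 other members and for epcam against gata3 and runx3. Cd28 and il7r are highest where gata3 is highest (unablated replicate 3 at 2 dpi), and il2rga is not.

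The same calculation for epcam gave r = 0.79 with gata3 (rho 0.58, exact permutation p = 0.0687 and 0.158), 0.71 with cd28 (rho 0.52, p = 0.135 and 0.224) and 0.31 with runx3 (rho 0.14, p = 0.464 and 0.695). Of 5 pairs with epcam none passed after adjustment (smallest adjusted exact permutation p = 0.338 for r and 0.536 for rho). Without the 2 libraries farthest from the median of epcam, r with gata3 was 0.36, with cd28 0.63 and with runx3 -0.44. Among 7943 genes of at least 10 CPM, those most like gata3 over the 12 libraries were cd9b (r = 0.96), mbnl3 (0.96), ncf1 (0.95), pvrl2l (0.94) and cltb (0.94). In that order runx3 ranked 1070, and the epithelial markers cdh1, cldnh and epcam ranked 238 (r = 0.84), 443 (0.80) and 463 (0.79). The genes most like runx3 were cog1 (r = 0.87), calcoco2 (0.87), dnmt3bb.1 (0.86), slc30a4 (0.85) and vps25 (0.81), and gata3 ranked 106. These ranks are a description over 12 libraries.

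From 2 to 4 dpi without ablation, il2rga rose 1.93-fold (log2 fold change 0.95, SE 0.18, adjusted p = 0.0447 by edgeR). Of the 6 members tested it was the 1 called, where 0.868% of 18079 genes were called in either direction. All unablated libraries at 4 dpi (187 to 249 CPM) lay above those at 2 dpi (108 to 113 CPM), a pattern whose share over all genes was not counted. This call was lost with DESeq2's size factors (adjusted p = 0.0529), with no filter (0.0575) and with a block by replicate number. It was also lost in a fit of the 6 unablated libraries (0.320). Omission of any unablated library other than replicate 3 at 2 dpi lost it too (0.0686 to 0.115). Omission of ablated libraries was not tried here. Over the same time without ablation, the log2 fold changes of runx3 (0.29, SE 0.39), gata3 (-0.39, SE 0.83), cd28 (0.71, SE 1.57) and il7r (0.23, SE 1.71) did not pass, with adjusted p of at least 0.834. Lck, at 0 in all 3 unablated libraries of 2 dpi, did not pass either (adjusted p = 0.341).

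After ablation no member tested was called between 2 and 4 dpi, against 1.29% of all genes called. Runx3 came nearest, with all libraries at 4 dpi (10.15 to 21.4 CPM) below those at 2 dpi (28.9 to 45.9 CPM) and a log2 fold change of -1.16 (SE 0.40, adjusted p = 0.198). Gata3 had -1.21 (SE 0.84, adjusted p = 0.616) and cd28 -4.17 (SE 1.82, adjusted p = 0.334). Il7r had all libraries at 4 dpi (0.912 to 1.82 CPM) above those at 2 dpi (0 to 0.445 CPM) and a log2 fold change of 2.22 (SE 1.81, adjusted p = 0.697). The share of all genes with no overlap between the times was not counted. Il2rga kept close values, with a log2 fold change of 0.12 (SE 0.18, adjusted p = 0.899). These contrasts share their libraries with the comparisons of ablation above.

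Whether ablation acted differently at the 2 times was tested directly, and no member passed. By edgeR, 0% of 18079 genes were called in this test, with 1059 at an unadjusted p under 0.05, while DESeq2 called 80 genes, limma voom 0 and limma on log2(TPM + 1) 0, and no member was called by any of them. The effect at 4 dpi minus that at 2 dpi was -1.45 for runx3 (SE 0.56), -0.83 for il2rga (SE 0.25), -0.82 for gata3 (SE 1.17) and -4.88 for cd28 (SE 2.36) on the log2 scale. It was positive for il7r (1.99, SE 2.46), and -11.24 (SE 5.05) for the sparse lck. Adjusted p of these 6 members was 0.811 to 0.963 by edgeR. The call of runx3, gata3 and cd28 at 4 dpi and not at 2 dpi therefore does not show that their response differed between the times.

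Around the members, 120 further genes of lymphoid biology were measured, on lists also chosen with earlier results of these data known. At 4 dpi, 60 of them were tested, 3 fell and 0 rose, where 1.88% of all genes were called lower and 1.83% higher. Their median log2 fold change was -0.28, beside -0.04 for all genes. Skap1, an adaptor of T cell adhesion signalling, measured 52.8, 37.0 and 24.5 CPM without ablation and 5.96, 8.505 and 5.46 CPM with it. It fell with a log2 fold change of -2.52 (SE 0.36, adjusted p = 0.0286 by edgeR), and at 22.2 to 54.2 and 32.9 to 63.9 counts for every 1000 epcam counts its groups overlapped. The perforin gene prf1.9, of the family of pore-forming proteins used by killer cells, measured 60.2, 117 and 99.0 CPM and 10.1, 19.5 and 24.9 CPM in the same order. Its log2 fold change was -2.34 (SE 0.40, adjusted p = 0.0371 by edgeR), and counts of this gene family are uncertain because its copies are alike. Id2a, whose mouse counterpart Id2 is required by innate lymphoid cells and Langerhans cells, fell from 187, 196 and 221 CPM to 108, 104 and 115 CPM (log2 fold change -0.89, SE 0.12, adjusted p = 0.0284 by edgeR). The interleukin 7 gene il7, the ligand for il7r, had 28, 29 and 36 counts in the unablated libraries and 0 in all 3 ablated ones. It passed the expression filter through its unablated libraries and was not called (adjusted p = 0.0636 by edgeR). Il7 is named for its small p in the test of the difference between the times (edgeR, unadjusted p = 0.0249, adjusted p = 0.811). The calls of skap1, prf1.9 and id2a were lost under the same 5 omissions and with all 12 libraries in 1 fit, and were kept without ablated replicate 2.

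By sublist at 4 dpi, 18 of 22 tested lymphoid transcription factors had a negative fold change (median -0.87) with 1 called, id2a. Of all 16313 genes tested, 8588 were negative. Some of the factors had wide errors, such as roraa (SE 1.35) and tox (SE 1.56). Roraa held 1146, 166 and 1074 counts in unablated libraries and 69, 1087 and 34 in ablated ones. The part of photoreceptor RNA in these values was not tested. Of 11 tested cytokine receptor and signalling genes, 5 were negative and none was called, and the median was 0.02. The 8 tested T cell receptor genes had 3 negative values, a median of 0.58 and 1 call, skap1. Negative were skap1 (-2.52), lcp2a (-0.38) and cd4-1 (-0.23). Positive were cd27 (5.03), lcp2b (1.37), prkcq (1.27), cd7al (1.08) and cd4-2.2 (0.08). Cd27 was sparse, with 16, 16 and 17 counts in the ablated libraries. Of 16 cytotoxic effector genes, 6 had 0 counts everywhere and 3 were tested, with 1 called, prf1.9. Of 17 genes of B cells and antigen receptor recombination, 11 stayed under 1 CPM in every library, dntt and igic1s1 had 0 counts throughout, and rag1 and rag2 totalled 5 and 18 counts. Of 15 cytokine genes 4 were tested and none was called, and likewise none of 8 tested trafficking genes.

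At 2 dpi, 48 of the wider list were tested and edgeR called none, with a median log2 fold change of -0.39 beside -0.12 for all genes. By sublist the medians were -1.55 for 18 transcription factors, 0.32 for 7 T cell receptor genes and 0.10 for 9 cytokine receptor and signalling genes. Roraa held 2768, 1971 and 188 counts in unablated replicates 1, 2 and 3 and 819, 77 and 84 in ablated ones. Photoreceptor markers summed to 116974, 75489 and 373 CPM and 8382, 752 and 120 CPM. Ikzf1 had another order, 1529, 3685 and 9131 counts without ablation. The part of photoreceptor RNA in the medians was not tested. Of the 48 genes, cd22, an inhibitory sialic acid receptor of mammalian B cells, had the smallest p. It measured 44.9, 35.1 and 20.8 CPM without ablation and 80.7, 124 and 105 CPM with it (log2 fold change 1.53, SE 0.34, adjusted p = 0.113). Cd7al measured 5.71, 3.65 and 1.89 CPM and 13.02, 15.8 and 24.95 CPM (log2 fold change 2.17, SE 0.55, adjusted p = 0.137). Nfil3-5, of the family of the innate lymphoid factor NFIL3 of mice, went the other way, from 26.8, 19.8 and 26.1 CPM to 6.88, 3.29 and 11.5 CPM (log2 fold change -1.83, SE 0.51, adjusted p = 0.156). For each of these 3 genes, named for their small p, the ablated and unablated values did not overlap. All ablated libraries were higher for cd22 and cd7al, as for 19.8% of all genes tested. They were all lower for nfil3-5, and the share of all genes with that pattern at 2 dpi was not counted.

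Over time 69 of the wider list were tested. Without ablation none was called by edgeR, and the median log2 fold change was 0.56 beside -0.08 for all genes. With ablation 1 rose: itgae.1, named for integrin alpha E, which in mammals holds lymphocytes in epithelia by binding E-cadherin. It measured 222, 191 and 202 CPM at 2 dpi and 687, 635 and 910 CPM at 4 dpi, 3.63-fold higher (log2 fold change 1.86, SE 0.26, adjusted p = 0.0214 by edgeR). This call was lost without any single ablated library other than replicate 1 at 2 dpi. Its neighbour in name itgae.2 measured 101, 144 and 100.04 CPM and 113, 108 and 141 CPM, and had a log2 fold change of 0.07 (SE 0.22, adjusted p = 0.970). Without ablation the 2 genes did not pass, with log2 fold changes of 1.03 (SE 0.25, adjusted p = 0.0930) for itgae.1 and 0.97 (SE 0.22, adjusted p = 0.0761) for itgae.2, and all libraries at 4 dpi higher for both. How many of all genes had that pattern was not counted. In the test of the difference between the times none of the 69 was called.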

How the data were processed

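The authors deposited whole-number counts and TPM values for 25281 genes, as 24 columns that cover 12 libraries and were all used (units per the file headers). The submitters' processing notes name GRCz11, while the sources used here do not give the aligner or the counting program. Libraries were made with SMART-Seq HT and Nextera XT, per the labels' protocols, which do not mark strand, so reads of overlapping genes and of close paralogs can be shared.

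Counts were tested with edgeR 4.0.16 (TMM, default expression filter by group, robust quasi-likelihood, Benjamini-Hochberg at 0.05 over all genes) in R 4.3.3, in a fit of 6 libraries for each time and of 12 libraries for contrasts of times. Alternatives were DESeq2 1.42.0, DESeq2's size factors, limma 3.58.1 (voom with quality weights, or log2(TPM + 1)), other filters, a replicate block, other sets of libraries and omission of each library. SE is the fold change divided by the root of F. The procedure was tested on simulated data. Correlations used log2(CPM + 1) with group means removed and all 1296 within-group permutations, two-sided (smallest p 0.000772).

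The members and lists were chosen with earlier results of these data known. Of 153 further lymphoid symbols 120 were matched, among them 9 by identifier in the reference tables. Further genes named were those called in a contrast, or the 3 with the smallest p where fewer than 3 were called in a contrast of ablation, and the 5 most like gata3 or runx3. At 2 dpi same-numbered libraries share a title date and correlated at r = 0.64, 0.02 and 0.62 after group means were removed. Whether a date is that of sorting or sequencing is not given. At 4 dpi all libraries carry 1 date. Intervals cover counting error only. Sequences were not analysed here, and values of some members and list genes are left out.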

Additional observations from a re-analysis of the deposited data

How the results depend on the processing

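With 3 libraries a group and near-empty libraries for most members, fold changes of cd28, il7r and lck are set by few libraries. Of 421 recomputed fold changes of members, 371 kept their direction and their side of the threshold, 29 lost a call, 6 gained one and 15 changed sign. Of 119 recomputed correlations 8 changed sign. DESeq2's size factors moved the median of all genes by -0.16 at 2 dpi, -0.12 over time without ablation and 0.21 for the difference between times.

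At 2 dpi DESeq2, limma voom, limma on log2(TPM + 1) and a fit of all 12 libraries each called 1 member, il2rga, and the block by replicate number, which there is a block by date, changed no call. At 4 dpi the block called 0 members and 0 of all 16313 genes tested. Whether libraries of 1 number belong together at 4 dpi is not given by the labels. After group means were removed they correlated at r = -0.22, -0.46 and -0.12, and no library correlated best with its own number. With 3 libraries a group these values cannot decide whether the libraries were paired. All 12 libraries in the fit called 1, and omission of a library gave 0 to 3. Over time without ablation DESeq2's size factors, no filter, the replicate block and the 6 unablated libraries alone each called 0, and omissions gave 0 to 1. Over all genes these 4 settings called 281 of 18079, 137 of 23060, 11 of 18079 and 0 of 16428. For the wider list at 2 dpi, DESeq2 called 6, limma voom 3, limma on log2(TPM + 1) 2 and all 12 libraries 5. Over all genes they called 1486 of 16048, 976 of 16048, 852 of 13326 and 1142 of 18079, in that order. At 4 dpi the strict filter called 5, DESeq2 13, limma voom 9, limma on log2(TPM + 1) 9, the replicate block 0, all 12 libraries 0, and omissions 0 to 8. Over all genes the first 4 called 790 of 13407, 2319 of 16313, 1553 of 16313 and 1672 of 13650. The block called 0 of 16313, all 12 libraries 222 of 18079, and omissions 0 to 1420. Over time, DESeq2 called 6 with ablation and 4 without, limma voom 9 and 2, limma on log2(TPM + 1) 4 without, and omissions gave 0 to 1 and 0 to 3. Of all 18079 genes, DESeq2 called 1250 with ablation and 1408 without, and limma voom 2000 and 382. Limma on log2(TPM + 1) called 765 of 15233 genes without ablation. Omissions gave 0 to 185 genes with ablation and 14 to 493 without.

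Signs changed for il7r at 2 dpi (limma voom 1.33), for its difference between times (limma voom -3.98, limma on log2(TPM + 1) -0.48, replicate block -1.11, omissions -1.88 to 2.58) and over time without ablation (-0.36 to 4.17). They changed for gata3 over time without ablation (limma voom 0.55, limma on log2(TPM + 1) 0.45, omissions -0.91 to 1.08) and, under omissions, for cd28 at 2 dpi (-3.14 to 0.52), runx3 over time without ablation (-0.022 to 0.51), and il2rga (-0.031 to 0.24) and lck (-7.59 to 5.78) over time with ablation. The r of gata3 and il7r ranged from -0.18 to 0.83, that of runx3 and il7r from -0.34 to 0.51 (4 dpi alone -0.22), and that of runx3 and il2rga from -0.37 to 0.12 (2 dpi alone 0.28, log2(TPM + 1) 0.055). The cause of these changes was not tested.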
